A study of Homo sapiens with 24 samples.

Results

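The genes YAP1, WWTR1, TEAD1, TEAD4, CCN1, CCN2, ANKRD1, AMOTL2, LATS2 and AJUBA belong to the Hippo pathway and its transcriptional output. They were chosen by symbol, and all 10 were found once each among the 61860 Ensembl gene IDs of the 4 count tables (CCN1 and CCN2 are the genes formerly called CYR61 and CTGF). RNA-seq had been run on OE33, an established human cell line from an esophageal adenocarcinoma (EAC), in 4 experiments that each held 3 treated and 3 control libraries, 24 libraries in all. The xenograft experiment compared subcutaneous tumors of nude mice: 1 group ate normal chow (ND, normal diet) and the other ate fat-rich chow (HFD, high-fat diet). In culture, cells transfected with a plasmid for HA-tagged TRIM15 were compared with empty vector (EV), and shYY2 and shFOXRED1 cells were each compared with their own shControl cells. TRIM15 is an E3 ubiquitin ligase, YY2 a zinc-finger transcription factor and FOXRED1 an assembly factor of mitochondrial complex I, and the study asked how the 3 genes are linked to each other and to diet.

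The xenograft mice were male BALB/c-nu animals bought at 4 weeks of age, were fed for 8 weeks before OE33 cells were injected, and carried the tumors for 3 weeks. By the study's methods, HFD mice were kept for their body weight relative to ND mice. Whether 1 library came from 1 tumor or from pooled tumors was not given in the sources used here. Transfection lasted 48 h for HA-TRIM15 and EV and 72 h for both shRNA experiments, and the sources do not say which of the shRNAs was sequenced. All 24 libraries share the one line, so none of the contrasts covers another EAC background. The labels call the tissue esophagus for all groups, tumors under the skin included. They do not say that libraries of a group came from separate cultures or animals, so the p-values measure the spread between these libraries, which may be technical.

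In the Hippo pathway the kinases MST1 and MST2 activate LATS1 and LATS2, which phosphorylate the co-activators YAP1 and TAZ (the product of WWTR1) and so keep them in the cytoplasm. Unphosphorylated YAP1 and TAZ enter the nucleus and bind TEAD factors, which read the sequence GGAATG in DNA and switch on genes such as CCN1, CCN2 and ANKRD1. The pathway is regulated by cell density, cell shape and matrix stiffness, and in gastrointestinal epithelium YAP1 is known for roles in regeneration and in carcinomas. Activity of YAP1 and TAZ is set mainly at the protein, so the transcript levels given here measure neither phosphorylation nor location.

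In GRCh38 the upstream regulators are annotated as LATS2 at chr13:20973032-21061547 (minus strand), AJUBA at chr14:22971174-22982642 (minus strand) and AMOTL2 at chr3:134355874-134375479 (minus strand). The co-activator genes are YAP1 at chr11:102110461-102233423 (plus strand) and WWTR1 at chr3:149517235-149736714 (minus strand), and the TEAD genes are TEAD1 at chr11:12674591-12944483 (plus strand) and TEAD4 at chr12:2959330-3040673 (plus strand). The target genes are CCN1 at chr1:85580761-85583962 (plus strand), CCN2 at chr6:131948176-131951373 (minus strand) and ANKRD1 at chr10:90912096-90921276 (minus strand). Exons of YAP1, WWTR1 and CCN2 overlap a transcript annotated on the opposite strand, and exons of AMOTL2 and AJUBA overlap another gene on the same strand, so their reads may not be fully separable.

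The TEAD motif near RefSeq starts of the members is shown first. CCN2 holds the largest number of copies among the windows searched. Whether copies of the motif go with the size or direction of a change was not tested. RefSeq promoters (GRCh38.p14) were at hand for 7 of the 10 genes, with 10 start sites between them, and the 250 bases before each start were searched on both strands for GGAATG. None were at hand for CCN1, TEAD1 and TEAD4. The CCN2 window lies at chr6:131951373-131951622 on the minus strand, just upstream of the transcript start, and is printed 5′ to 3′ with the motif in capitals:
CCN2: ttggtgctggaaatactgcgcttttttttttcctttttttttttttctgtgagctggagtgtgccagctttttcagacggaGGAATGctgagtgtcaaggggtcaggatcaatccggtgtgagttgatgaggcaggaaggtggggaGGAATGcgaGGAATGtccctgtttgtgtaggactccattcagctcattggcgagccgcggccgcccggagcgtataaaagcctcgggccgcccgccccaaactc

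The copies in CCN2 begin 169, 104 and 95 bases before the start, the last pair separated by only a few bases. 4 other genes held the motif, and each match is shown with 12 bases on either side, read on the strand of the gene and with the motif in capitals. The AMOTL2 match is in the opposite orientation.
YAP1, chr11:102110273-102110302, plus strand: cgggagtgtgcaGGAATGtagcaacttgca
ANKRD1 distal, chr10:90921290-90921319, minus strand: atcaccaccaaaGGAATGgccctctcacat
ANKRD1 proximal, chr10:90921198-90921227, minus strand: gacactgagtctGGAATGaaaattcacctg
AMOTL2, chr3:134374499-134374528, minus strand: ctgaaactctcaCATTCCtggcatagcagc
AJUBA, chr14:22976884-22976913, minus strand: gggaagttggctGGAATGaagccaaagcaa

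These matches began 162 bases before the RefSeq start in YAP1 and 220 and 128 in ANKRD1. They began 69 bases before the second start of AMOTL2 and 59 before the second start of AJUBA. The proximal ANKRD1 match and the matches of AMOTL2 and AJUBA lie inside the gene intervals given above, whose starts differ from these RefSeq starts. WWTR1 and LATS2 had no match in their windows. Among all 34943 RefSeq promoter windows of the same length, 11.9% held the motif, against 5 of the 10 windows of the members. The list was chosen to include known TEAD target genes, and WWTR1, AMOTL2 and AJUBA each gave a second window. Enrichment of the motif was not tested. The AP-1 motif was searched as TGANTCA with any base at N. It was found in ANKRD1 alone, as TGATTCA 195 bases before its start, and in 6.59% of all windows. CCATNTT, the core read by YY1 and YY2, was found in 0 of these 7 genes and in 11.6% of all windows. None of the 3 motifs overlaps another where it was found, and a match describes letters in a window, not binding.

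Each library held 14299807 to 45994561 counts. The epithelial markers EPCAM, CDH1, KRT8, KRT18, KRT19, ERBB2, CLDN4 and CLDN7 were tested in every experiment, with EPCAM at 455 to 681 CPM (counts scaled to a common library size) as a group mean. Of the markers of other cells, 1 of 8 for fibroblasts, 2 of 6 for leukocytes and 0 for endothelium and muscle passed the filter on low counts; leukocyte markers summed to 7.87 to 26.5 CPM and the endothelial and muscle lists to at most 1.38 CPM a library. The targeted genes followed their labels, each in its own experiment. TRIM15 had 111, 130 and 181 counts with HA-TRIM15 and 0 in all EV libraries (at least 64.5-fold higher, against a floor of 3 counts a library). YY2 fell from 43, 40 and 46 counts to 11, 12 and 11 with shYY2. FOXRED1 fell by 0.78 on the log2 scale with shFOXRED1 (adjusted p = 4.06e-05, edgeR). FOXRED1 also fell by 0.89 with shYY2 (adjusted p = 3.31e-09, edgeR) and by 0.24 with HA-TRIM15 (adjusted p = 0.00509, edgeR). With HFD the FOXRED1 groups overlapped and the test was not passed (log2 -0.06, adjusted p = 0.414, edgeR).

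The levels of the 10 genes differed widely between genes and, for some, between experiments. Levels are CPM scaled by TMM over all 24 libraries, and they describe groups that were sequenced in separate experiments, with no test. Per kilobase of exon, the median control level was highest for CCN1 (69.7 CPM per kb) and YAP1 (56.1), followed by TEAD1 (26.2), AMOTL2 (24.1) and WWTR1 (16.1). It was lower for TEAD4 (9.21), AJUBA (7.58), CCN2 (6.22) and LATS2 (5.23), and lowest for ANKRD1 (0.490).

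The co-activators, TEAD factors and LATS2 varied less between the control groups than AJUBA, AMOTL2 and the target genes. Between the highest and the lowest of the 4 control groups the ratio was 1.34 for TEAD1, 1.35 for WWTR1, 1.39 for LATS2, 1.49 for YAP1 and 1.77 for TEAD4, and it was 1.93 for AJUBA and 2.31 for AMOTL2. The matricellular target genes varied much more, by 10.6-fold for CCN1 and 10.5-fold for CCN2, in both cases with ND tumors highest and the shControl cells of the FOXRED1 experiment lowest. ANKRD1 had 86, 66 and 102 counts in the shControl cells of the YY2 experiment and 2, 2 and 3 counts in those of the FOXRED1 experiment, although both were shControl OE33 cells taken after 72 h. Over all 8 groups CCN2 spanned 82.0-fold and CCN1 26.4-fold, each from shYY2 at the top to shFOXRED1 at the bottom.

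CCN2 fell in the order shYY2 (159 ± 2.19 CPM, SD, n = 3), HFD (117 ± 2.32), ND (75.7 ± 0.339), shControl of the YY2 experiment (15.0 ± 0.504), EV (14.1 ± 0.500), HA-TRIM15 (10.4 ± 1.13), shControl of the FOXRED1 experiment (7.24 ± 1.63) and shFOXRED1 (1.94 ± 0.264). Only the shControl of the YY2 experiment and EV overlapped among neighbours in that order. CCN1 fell in the order shYY2 (690 ± 6.29 CPM), HFD (427 ± 3.29), ND (351 ± 7.11), HA-TRIM15 (214 ± 12.2), EV (176 ± 1.55), shControl of the YY2 experiment (167 ± 1.72), shControl of the FOXRED1 experiment (33.2 ± 2.54) and shFOXRED1 (26.1 ± 2.22), with no overlap between neighbours. YAP1 ran from 393 ± 5.22 CPM in shYY2 to 248 ± 4.33 in ND and 225 ± 7.33 in shFOXRED1, and neighbours overlapped from the shControl of the YY2 experiment to EV, from EV to HA-TRIM15 and from the shControl of the FOXRED1 experiment to HFD.

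The diet comparison asked which transcripts of the tumors differed between HFD and ND mice. From here on CPM values are scaled by TMM within the experiment. In HFD tumors 8 of the 10 genes rose and 0 fell (edgeR, adjusted p below 0.05), where over all 17012 genes tested 25.6% were called higher and 23.9% lower. An unadjusted p below 0.05 also gave 0 lower, as did DESeq2. The median log2 fold change of the 10 genes was 0.41, against -0.012 for all genes tested. The risers took in the target genes, the scaffold AMOTL2, the LIM protein AJUBA, YAP1 and both TEAD factors.

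Among the upstream regulators, AMOTL2 encodes an angiomotin that holds YAP1 at cell junctions and is itself a YAP target gene. It read 275, 272 and 276 CPM in HFD and 173, 177 and 170 CPM in ND tumors. The groups did not overlap, and the log2 fold change was 0.66 (SE 0.034, adjusted p = 1.62e-10). AJUBA, which restrains LATS kinases, read 58.7, 59.1 and 60.9 CPM in HFD and 40.7, 41.7 and 41.8 CPM in ND. All HFD libraries lay above all ND libraries, with a log2 fold change of 0.53 (SE 0.041, adjusted p = 2.37e-08). The kinase gene LATS2 overlapped between the diets, at 36.2 ± 1.56 CPM in HFD and 36.9 ± 1.25 CPM in ND (SD, n = 3).

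YAP1 read 333, 340 and 337 CPM in HFD and 257, 250 and 255 CPM in ND tumors. The groups were well separated, and YAP1 rose 1.32-fold (log2 0.40, SE 0.033, adjusted p = 3.80e-08). WWTR1 did not pass the test, with a log2 fold change of 0.07 (SE 0.034, adjusted p = 0.109). TEAD4 rose from 16.0 ± 0.660 to 21.5 ± 0.877 CPM (log2 0.42, SE 0.063, adjusted p = 3.68e-05). TEAD1 rose by only 0.12 on the log2 scale (SE 0.034, adjusted p = 0.0108).

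Of the target genes, CCN2, which encodes a matricellular protein that binds integrins and growth factors, read 117, 121 and 121 CPM in HFD and 77.3, 77.5 and 77.8 CPM in ND. The HFD libraries were all higher, by 1.55-fold (log2 0.63, SE 0.035, adjusted p = 4.76e-10). CCN1, its relative, read 440, 435 and 434 CPM in HFD and 362, 366 and 351 CPM in ND (log2 0.28, SE 0.033, adjusted p = 3.11e-06). ANKRD1, an ankyrin-repeat protein of nucleus and sarcomere, was scarce. Its counts were 25, 25 and 54 in HFD and 21, 23 and 14 in ND, or 1.10, 1.37 and 1.42 against 0.787, 0.481 and 0.651 CPM. After scaling for depth the groups did not overlap, and ANKRD1 rose 2.13-fold (log2 1.09, SE 0.24, adjusted p = 0.00114).

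Scaling by total counts alone moved the median of all genes tested from -0.012 to -0.12 and the calls from 4354 higher and 4061 lower to 2800 higher and 6415 lower. With it TEAD1 lost its call (log2 0.01), LATS2 was called lower (log2 -0.14), WWTR1 changed sign to -0.04, CCN1 rose by 0.17 on the log2 scale and 7 genes remained called higher. Upper-quartile scaling gave 3430 higher and 5195 lower and also left TEAD1 uncalled (log2 0.06). Human fibroblast markers summed to 23.7 to 27.1 CPM in HFD and 30.5 to 33.5 CPM in ND, almost all of it COL1A1, with LUM and THY1 at 0 in HFD and DCN and PDGFRA at 0 in ND. In the cultured groups COL1A1 stood at 10.6 CPM (shControl of the YY2 experiment) to 42.7 CPM (shYY2). The tumors grew in mice, so human genes are no measure of cells supplied by the host. The part of tumor composition in the differences between HFD and ND was not tested. In bulk samples fewer cells of a type and less RNA per cell cannot be told apart.

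The HA-TRIM15 comparison asked what overexpression of the ligase changes in cultured OE33 cells. The response was mixed: ANKRD1, LATS2, CCN1 and TEAD1 rose, CCN2 and AJUBA fell, and YAP1, WWTR1, AMOTL2 and TEAD4 did not pass the test. Thus 4 of 10 genes were called higher and 2 lower, against 12.5% and 9.53% of the 15745 genes tested. The median log2 fold change of the 10 genes, -0.00, was close to that of all genes, -0.0065.

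LATS2, the kinase that phosphorylates YAP1, read 33.0, 32.9 and 32.7 CPM with HA-TRIM15 and 28.0, 26.4 and 25.1 CPM with EV. The HA-TRIM15 libraries were nearly equal and all above EV (log2 0.31, SE 0.055, adjusted p = 0.00104). AJUBA read 37.8, 40.1 and 38.6 CPM with HA-TRIM15 and 47.3, 43.6 and 45.5 CPM with EV. It was lower in every HA-TRIM15 library (log2 -0.23, SE 0.048, adjusted p = 0.00377). AMOTL2 overlapped between groups at 117 ± 5.38 and 118 ± 3.04 CPM.

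YAP1 was level, at 356 ± 5.82 CPM with HA-TRIM15 and 355 ± 0.579 CPM with EV (log2 0.01, SE 0.029, adjusted p = 0.915). WWTR1 gave a log2 fold change of -0.06 (SE 0.040, adjusted p = 0.286). TEAD1 rose from 255 ± 3.15 to 292 ± 14.5 CPM, with no overlap (log2 0.20, SE 0.037, adjusted p = 0.00148). TEAD4 read 25.3, 20.9 and 24.1 CPM with HA-TRIM15 and 27.9, 26.9 and 26.4 CPM with EV. These groups did not overlap either, but the test was missed narrowly (log2 -0.20, SE 0.069, adjusted p = 0.0530). TEAD4 passed with RLE, upper-quartile or total-count scaling, without a filter, with a replicate block (adjusted p = 0.0363) and without HA-TRIM15 replicate 1 (log2 -0.26, adjusted p = 0.00669).

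The 3 target genes did not move together. CCN1 read 220, 197 and 209 CPM with HA-TRIM15 and 171, 172 and 169 CPM with EV. Every HA-TRIM15 library was higher (log2 0.29, SE 0.039, adjusted p = 1.05e-04). CCN2 read 11.3, 9.10 and 9.99 CPM with HA-TRIM15 and 13.5, 13.3 and 14.2 CPM with EV. Every HA-TRIM15 library was lower (log2 -0.43, SE 0.089, adjusted p = 0.00333). ANKRD1 counts were 52, 38 and 34 with HA-TRIM15 and 20, 33 and 37 with EV, in libraries of 15534233 to 20901782 and 20108463 to 26479130 counts. As CPM they were 2.53, 2.47 and 2.15 against 0.987, 1.45 and 1.39, without overlap, a 1.86-fold rise (log2 0.89, SE 0.19, adjusted p = 0.00434). The split of calls over all genes, 1973 higher and 1501 lower, became 1511 and 2214 with total-count scaling, which left all 4 risers among the 10 called.

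Knockdown of YY2 raised CCN2 and CCN1 most, followed by AJUBA, LATS2, AMOTL2 and WWTR1, whereas ANKRD1, TEAD1 and TEAD4 fell. The changes of CCN2, CCN1, AJUBA and LATS2 were their largest in the 4 experiments. This made 6 of 10 genes higher and 3 lower, in an experiment where 36.8% of the 16006 genes tested were called higher and 38.1% lower, so the number called is near what the experiment gives for any genes. The median log2 fold change of the 10 was 0.26, against -0.0081 for all genes tested.

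CCN2 read 154, 159 and 159 CPM with shYY2 and 14.6, 15.2 and 15.6 CPM with shControl. The groups stood an order of magnitude apart, a 10.4-fold rise (log2 3.37, SE 0.042, adjusted p = 2.16e-17). By log2 fold change CCN2 ranked 57 of 16006 genes. CCN1 read 680, 685 and 675 CPM with shYY2 and 166, 169 and 169 CPM with shControl. It rose 4.05-fold with little spread among libraries (log2 2.02, SE 0.027, adjusted p = 2.95e-17) and ranked 428. ANKRD1, the remaining target gene, went the other way at 2.86, 2.70 and 2.76 CPM against 4.72, 3.90 and 5.14 CPM. All shYY2 libraries were below all controls (log2 -0.73, SE 0.15, adjusted p = 3.14e-04), on 45 to 51 and 66 to 102 counts.

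The upstream regulators all rose. AJUBA read 104, 100 and 104 CPM with shYY2 and 45.6, 43.8 and 43.2 CPM with shControl. That was a 2.33-fold rise without overlap (log2 1.22, SE 0.037, adjusted p = 1.11e-13). LATS2 read 51.4, 50.8 and 50.6 CPM against 30.9, 30.9 and 32.1 CPM. It rose 1.62-fold (log2 0.70, SE 0.044, adjusted p = 6.45e-10). AMOTL2 rose from 167 ± 6.72 to 224 ± 3.03 CPM (log2 0.42, SE 0.033, adjusted p = 9.18e-09).

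The co-activators and TEAD factors changed less. YAP1 read 381, 394 and 386 CPM with shYY2 and 367, 371 and 382 CPM with shControl, and the groups overlapped. Its log2 fold change of 0.05 (SE 0.028, adjusted p = 0.0971) did not pass, but reached 0.07 (adjusted p = 0.0417) with RLE, 0.07 (adjusted p = 0.0345) with total counts, 0.14 with upper-quartile scaling, 0.08 with at least 10 counts in every library and 0.06 (adjusted p = 0.0395) without shControl replicate 3. WWTR1 rose by 0.10 on the log2 scale (SE 0.031, adjusted p = 0.00640), a call lost without shControl replicate 1 (log2 0.08, adjusted p = 0.0572) and enlarged to 0.19 by upper-quartile scaling. TEAD1 fell from 287 ± 5.06 to 224 ± 0.633 CPM (log2 -0.36, SE 0.028, adjusted p = 8.02e-09). TEAD4 fell by 0.17 on the log2 scale (SE 0.066, adjusted p = 0.0258), a call that was lost with DESeq2 (adjusted p = 0.127), with upper-quartile scaling (log2 -0.09), with at least 10 counts in every library, and without shControl replicate 1, shYY2 replicate 1 or shYY2 replicate 2 (adjusted p = 0.105, 0.0962 and 0.0713).

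COL1A1, the collagen gene among the fibroblast markers, stood at 42.7 CPM with shYY2 and 10.6 CPM with shControl and made up nearly all of the summed fibroblast list (42.4 to 43.9 against 10.5 to 11.3 CPM), while PDGFRA and THY1 were at 0 in every shYY2 library. Of the 8 fibroblast markers only COL1A1 could be tested, and it was called higher. The group means of all other markers in the list were at most 0.267 CPM with shYY2 (PDGFRB) and 0.0548 CPM with shControl (PDGFRA). Both groups were cultures of the one line, OE33, and the origin of the COL1A1 reads was not tested.

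Knockdown of FOXRED1 lowered most of the 10 genes. CCN2 fell most, then YAP1, AJUBA, TEAD1, CCN1, TEAD4, WWTR1 and AMOTL2, and only LATS2 rose. With ANKRD1 below the filter on low counts, 9 genes were tested, of which 1 was called higher and 8 lower. Over all 15730 genes tested 16.8% were called higher and 19.7% lower. The median log2 fold change of the 9 genes was -0.33, against 0.012 for all genes tested.

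CCN2 counts were 41, 34 and 26 with shFOXRED1 and 106, 136 and 103 with shControl, or 2.27, 1.84 and 1.78 against 5.83, 9.02 and 7.00 CPM. No library of one group reached the other, and CCN2 was 3.67-fold lower (log2 -1.88, SE 0.21, adjusted p = 2.22e-06). It ranked 17 from the lowest of 15730 genes by log2 fold change. CCN1 read 28.8, 26.2 and 24.3 CPM with shFOXRED1 and 33.9, 30.5 and 35.7 CPM with shControl. The groups did not overlap (log2 -0.33, SE 0.090, adjusted p = 0.00733). ANKRD1 had 4, 8 and 1 counts with shFOXRED1 and 2, 2 and 3 with shControl, too few for a fold change.

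YAP1 read 220, 232 and 233 CPM with shFOXRED1 and 332, 340 and 361 CPM with shControl. It was 1.51-fold lower without overlap (log2 -0.59, SE 0.052, adjusted p = 1.28e-07), the one clear fall of YAP1 in the 4 experiments. TEAD1 fell from 278 ± 22.4 to 214 ± 15.3 CPM (log2 -0.38, SE 0.064, adjusted p = 1.75e-04). TEAD4 overlapped, at 15.4, 17.0 and 15.0 CPM against 19.9, 22.1 and 16.6 CPM, with a log2 fold change of -0.31 (SE 0.11, adjusted p = 0.0457). Its call was lost in 4 of 8 settings that kept every library (DESeq2 adjusted p = 0.0613, total counts 0.101, upper-quartile 0.0723, at least 10 counts in every library 0.0545), and without shControl replicate 1 or 2 or shFOXRED1 replicate 1 or 3 (adjusted p = 0.115, 0.240, 0.118 and 0.0606). WWTR1 fell by 0.20 on the log2 scale (SE 0.061, adjusted p = 0.0142), a call lost with total counts (log2 -0.15) and without shControl replicate 3 or shFOXRED1 replicate 1 (adjusted p = 0.0711 and 0.0899).

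AJUBA read 59.6, 58.3 and 56.9 CPM with shFOXRED1 and 74.6, 77.0 and 84.1 CPM with shControl. It was lower in every knockdown library (log2 -0.43, SE 0.066, adjusted p = 7.06e-05). AMOTL2 fell from 73.6 ± 1.27 to 64.0 ± 1.49 CPM (log2 -0.20, SE 0.061, adjusted p = 0.0155), and lost its call with total counts (log2 -0.15, adjusted p = 0.0727) and without shControl replicate 2 (adjusted p = 0.0749). LATS2 read 29.7, 34.3 and 30.4 CPM with shFOXRED1 and 26.2, 25.9 and 26.1 CPM with shControl. Every knockdown library was higher (log2 0.27, SE 0.085, adjusted p = 0.0175), but the call was lost on leaving out shControl replicate 1, 2 or 3 or shFOXRED1 replicate 2 (adjusted p = 0.0577, 0.0630, 0.0519 and 0.128). With total counts 5 genes were called lower, and over all genes 3325 were higher and 2476 lower instead of 2650 and 3102. Fibroblast markers summed to 38.4 to 41.8 CPM with shFOXRED1 and 24.2 to 25.5 CPM with shControl, again nearly all COL1A1. These groups too were cultures of OE33, and the origin of the COL1A1 reads was not tested.

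**Figure D1:**
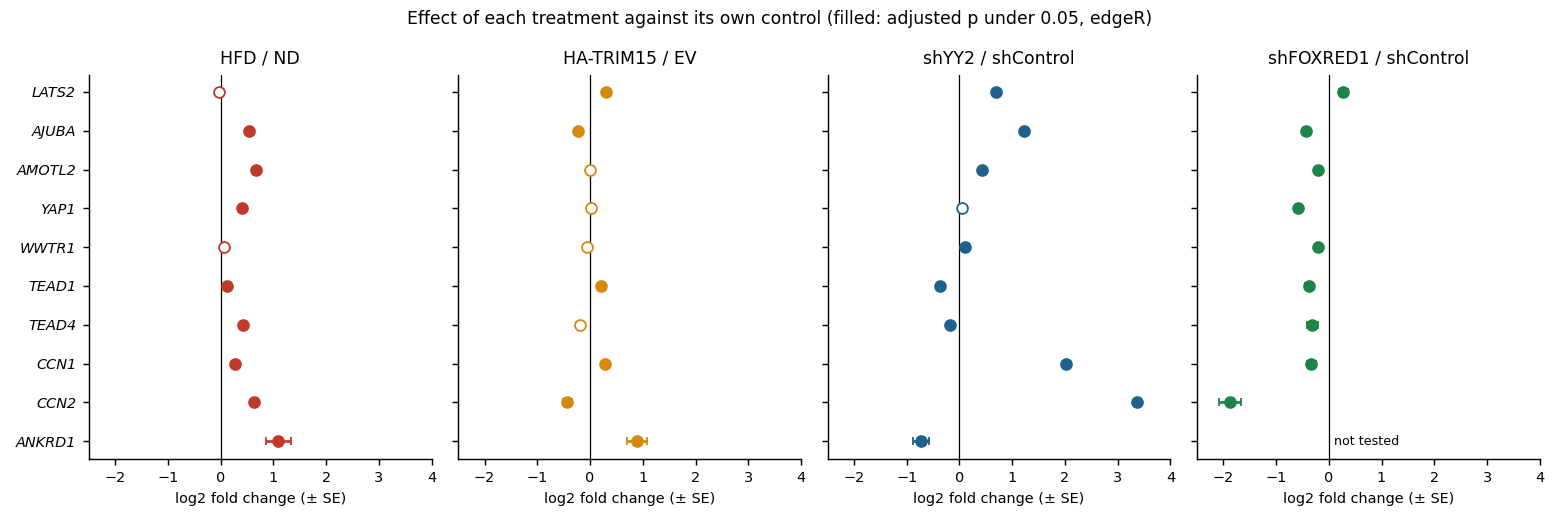
Log2 fold change (x axis, bars ± SE) of the 10 genes (rows) in the 4 experiments (panels), from edgeR fits of 3 against 3 libraries. Filled points passed the adjusted p threshold of 0.05. Most points lie right of 0 with HFD and left of 0 with shFOXRED1, and CCN2 reaches 3.37 with shYY2 and -1.88 with shFOXRED1.

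CCN1, CCN2, AJUBA and TEAD1 were called in all 4 experiments, 4 of the 9 members tested in each, against 6.79% of the 14519 genes tested in each. CCN2 and AJUBA shared one order of directions: higher with HFD, lower with HA-TRIM15, higher with shYY2 and lower with shFOXRED1. That order, singled out after the values were seen, was found in 28 genes, or 0.193% of those tested in all 4 experiments. CCN1 was higher in the first 3 experiments and lower with shFOXRED1, and TEAD1 was higher in the first 2 and lower in both knockdowns. LATS2 was called higher in 3 experiments and, with HFD, lower with total-count scaling alone, and YAP1 was called in 2 experiments, higher with HFD and lower with shFOXRED1.

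As a description over the 24 libraries, deviations of log2 CPM from the mean of the own control group were compared between genes. The libraries share experiments and controls, so the coefficients mainly reflect which experiments moved a gene. CCN2 tracked AJUBA (r = 0.969) and CCN1 (r = 0.945), and it tracked YAP1 less closely (r = 0.507). The genes most like CCN2 were PANX2 (0.988), OLFML2A (0.983) and ITGB4 (0.982), those most like CCN1 were LBH (0.991), WASF2 (0.989) and STAU1 (0.987), and those like YAP1 included CREG1 (0.985) and C12orf75 (0.978), among 14519 genes. YAP1 and LATS2 gave r = -0.213.

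The effects themselves were compared between neighbouring experiments in one edgeR fit over the 24 libraries. Neighbours follow the order diet, TRIM15, YY2 and FOXRED1 that the study proposes, which these contrasts do not test. Every experiment has its own controls. For each gene that fit uses a shared estimate of the spread for all groups, although the spread differed between experiments. The effects of HFD and HA-TRIM15 differed for 6 of 10 genes, against 28.4% of 17980 genes tested. CCN2 showed the largest gap, rising with HFD and falling with HA-TRIM15 (difference of log2 fold changes 1.06, SE 0.10, adjusted p = 1.20e-09), and AJUBA did likewise (0.76, SE 0.065, adjusted p = 1.61e-10). For CCN1 (-0.01, SE 0.057, adjusted p = 0.946), TEAD1 (-0.08, SE 0.064, adjusted p = 0.411), ANKRD1 (0.19, SE 0.32, adjusted p = 0.720) and WWTR1 (0.14, SE 0.057, adjusted p = 0.0706) the test was not passed. The calls over all genes, 2878 above 0 and 2220 below, became 1978 and 3323 with total counts and 2307 and 2790 with upper-quartile scaling. WWTR1 passed with DESeq2, RLE scaling, a replicate block (adjusted p = 0.0321) and without HA-TRIM15 replicate 3, shFOXRED1 replicate 1 or shFOXRED1 replicate 3 (adjusted p = 0.0178, 0.0444 and 0.0338).

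The effects of HA-TRIM15 and shYY2 differed for 8 of 10 genes, against 57.4% of all genes. CCN2 (difference -3.84, SE 0.11, adjusted p = 9.27e-23) and ANKRD1 (1.59, SE 0.29, adjusted p = 2.06e-05) moved in opposite directions in the 2 experiments, and so did AJUBA and TEAD1. For YAP1 the difference was -0.08 (SE 0.047, adjusted p = 0.128) and passed with upper-quartile scaling (-0.13, adjusted p = 0.0178). The contrast of shYY2 and shFOXRED1 passed the test for 8 of 10 genes, ANKRD1 included, against 55.5% of all genes. CCN2 differed by 5.28 on the log2 scale (SE 0.16, adjusted p = 7.51e-22), CCN1 by 2.39 (SE 0.073, adjusted p = 8.02e-22) and YAP1 by 0.69 (SE 0.048, adjusted p = 1.69e-13). These SEs are below those of shFOXRED1 fitted alone (0.21, 0.090 and 0.052 in the same order), so with the shared spread they may be too small. The ANKRD1 difference of -1.46 (SE 0.61, adjusted p = 0.0478) rests on at most 8 counts a library in the FOXRED1 experiment, where ANKRD1 did not pass the filter on low counts, and it entered the fit through the other experiments. It was lost with a replicate block (adjusted p = 0.0749), DESeq2 (0.0754) or no filter (0.119), and it fell to -0.75 (adjusted p = 0.484) without shFOXRED1 replicate 2. It was also lost without shControl replicate 1 or 2 of the FOXRED1 experiment, shControl replicate 1 or 3 of the YY2 experiment, shFOXRED1 replicate 1, or shYY2 replicate 2 or 3 (adjusted p = 0.0558 to 0.132). TEAD4 (0.17, adjusted p = 0.237) was not called except without shControl replicate 3 of the FOXRED1 experiment (0.27, adjusted p = 0.0449).

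Paralogs of the members were set beside them after the values had been seen. TEAD factors split by paralog in both knockdowns. With shYY2, TEAD2 rose by 0.83 (SE 0.075) and TEAD3 by 0.95 (SE 0.033) on the log2 scale while TEAD1 fell, and with shFOXRED1, TEAD2 rose by 0.41 (SE 0.086) and TEAD3 by 0.37 (SE 0.080) while TEAD1 fell. Each of these directions for TEAD1, TEAD2 and TEAD3 was called in 8 of 8 settings that kept every library. LATS1 rose with HFD (log2 0.24) and with HA-TRIM15 (log2 0.27) but fell with shYY2 (log2 -0.42), where LATS2 rose. Among the angiomotins, AMOT, AMOTL1 and AMOTL2 all rose with HFD (log2 0.63, 0.41 and 0.66) and with shYY2 (log2 0.92, 0.46 and 0.42), and each of these 6 calls was made in 8 of 8 settings. With shFOXRED1, AMOTL1 fell by 0.41 on the log2 scale, and AMOT gave -0.07 and did not pass.

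Of 39 other Hippo genes (kinases, scaffolds, polarity proteins, TEAD partners and other regulators), 37 were tested with HFD, of which 18 rose and 6 fell, where 25.6% and 23.9% of all genes were called. Their median log2 fold change was 0.14. FRMD6, a membrane-bound upstream activator of the pathway, rose by 0.69 (SE 0.048), the LATS co-activator MOB1A by 0.63 (SE 0.034) and AMOT by 0.63 (SE 0.11). The atypical cadherin FAT4 (log2 -0.89, SE 0.17), the TEAD competitor VGLL4 (log2 -0.63, SE 0.047) and the LIM protein WTIP (log2 -0.53, SE 0.16) fell most. With HA-TRIM15, 14 of 37 rose and 3 fell, against 12.5% and 9.53% of all genes, so the falls are near the background. FRMD6 (log2 0.52), the polarity protein PALS1 (log2 0.29) and the phosphatase PTPN14 (log2 0.28) led the rise, and SCRIB (log2 -0.40) and NF2 (log2 -0.23) fell most. SCRIB was uneven, at 46.2, 34.7 and 29.8 CPM with HA-TRIM15 and 48.4, 49.3 and 50.1 CPM with EV. The count of falls became 5 without HA-TRIM15 replicate 1.

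With shYY2, 17 of the 37 rose and 11 fell, and as 36.8% and 38.1% of all genes were called, the number called is near the background. FAT4 had 113, 103 and 106 counts with shYY2 and 8, 8 and 10 with shControl (6.26 ± 0.576 against 0.472 ± 0.0325 CPM, log2 3.71, SE 0.19). It passed the filter on low counts only through the shYY2 libraries, where it is high. VGLL1 (log2 1.02) and TEAD3 rose next. FRMD6 (log2 -0.82), FAT1 (log2 -0.47) and LATS1 fell most. With shFOXRED1, 38 were tested, 4 rose and 13 fell, against 16.8% and 19.7% of all genes. The kinase MAP4K4, which phosphorylates LATS, fell from 600 ± 8.37 to 369 ± 17.8 CPM (log2 -0.70, SE 0.048), and SCRIB (log2 -0.70, SE 0.22, groups overlapping) and FRMD6 (log2 -0.51, SE 0.081) fell too, whereas WTIP (log2 0.98), FAT4 (log2 0.94) and TEAD2 rose. FRMD6 was thus higher with HFD and HA-TRIM15 and lower in both knockdowns, as TEAD1 was.

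Of 16 other known YAP/TEAD target genes, 14 were tested in each experiment. With HFD 7 rose and 2 fell (all genes 25.6% and 23.9%). F3, the gene of tissue factor, rose from 992 ± 35.8 to 2130 ± 23.1 CPM (log2 1.10, SE 0.034), followed by the kinase NUAK2 (log2 1.05) and the growth factor TGFB2 (log2 0.80), and ASAP1 (log2 -0.37) and NT5E (log2 -0.23) fell. With HA-TRIM15 4 rose and 1 fell (all genes 12.5% and 9.53%). The stress gene GADD45A rose from 55.3 ± 0.747 to 133 ± 6.39 CPM (log2 1.27, SE 0.042), NUAK2 rose by 0.55 and IGFBP3 by 0.39 on the log2 scale, and FJX1 fell (log2 -0.36). Without HA-TRIM15 replicate 1, 7 rose and 3 fell.

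With shYY2 7 of the 14 rose and 4 fell, again near the background in number called (all genes 36.8% and 38.1%). ARHGEF17 (log2 1.17), TGFB2 (log2 0.93) and CCDC80 (log2 0.85) rose, while FJX1 (log2 -1.31), GADD45A (log2 -0.72) and F3 (log2 -0.66, SE 0.029) fell, so that CCN1 and CCN2 rose in an experiment in which F3 fell from 1780 ± 71.1 to 1130 ± 7.44 CPM. With shFOXRED1 3 rose and 7 fell (all genes 16.8% and 19.7%), the rises being near the background. The receptor kinase AXL (log2 -1.12, SE 0.079), F3 (log2 -0.85, SE 0.047) and NT5E (log2 -0.61, SE 0.058) fell most, and CCDC80 (log2 0.50), IGFBP3 (log2 0.44) and ARHGEF17 (log2 0.31) rose. The medians of this list were 0.15, 0.04, 0.06 and -0.14 in the order HFD, HA-TRIM15, shYY2 and shFOXRED1, and those of the other Hippo genes were 0.14, 0.09, 0.09 and -0.05.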

How the data were processed

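RNA-seq libraries of OE33 xenografts and cultured cells were analysed from the tables of raw counts per Ensembl gene ID that the authors deposited, 1 for each of 4 experiments. The submitters' processing notes name the builds hg38 and mm10 without a role. The aligner, the counting tool, how mouse reads in the xenografts were treated and whether counting used strand were not given in the sources used here, so reads from YAP1, WWTR1 or CCN2 and from their antisense partners cannot be told apart. The labels name a directional kit and the study's methods a kit that does not mark strand. Coordinates and exon lengths came from GENCODE release 29 (GRCh38), which named 99.8% of the 61860 IDs, and promoters from RefSeq (GRCh38.p14). Table columns were tied to samples through their names. In the HA-TRIM15 table the header held more cells than the rows, and its 6 names were read in order over the 6 value columns.

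In each experiment, genes passing filterByExpr (minimum count 10, minimum total 15) were scaled by TMM and fitted with edgeR 4.0.16 (estimateDisp, glmQLFit, glmQLFTest; R 4.3.3), p-values being adjusted by Benjamini-Hochberg across every tested gene, at a threshold of 0.05. SE is the log2 fold change divided by the root of F. Differences of effects were contrasts in 1 fit of all 24 libraries, in which the groups share the estimate of the spread. The scripts were tested on simulated data. The alternatives were RLE, upper-quartile and total-count scaling, no filter, at least 10 counts in every library, DESeq2 1.42.0, a replicate block and each library left out. With 3 against 3 libraries an exact permutation test cannot give a p under 0.1, so none was used. No pair of replicates agreed within counting noise. Libraries of the same replicate number did not deviate together over all genes tested (correlations -0.0275 to 0.0970), but among genes of at least 10 CPM every pair of the shFOXRED1 experiment exceeded 0.1 (0.211, 0.125 and 0.410). The main fits were unpaired in every experiment, shFOXRED1 included, and the block was an alternative only. In the shFOXRED1 experiment the block changed no call of the 10 genes. Over all genes it gave 3157 higher and 3636 lower there, instead of 2650 and 3102.

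The members, the gene lists and the comparisons were chosen with earlier results of these data known. All 10 genes are named, together with the targeted genes, the 3 risers and 3 fallers with the largest change in each wider list and experiment at a mean of at least 1 CPM, and the 3 genes most like YAP1, CCN1 and CCN2. A few genes that this rule names are not reported here.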

Additional observations from a re-analysis of the deposited data

Results flagged for a closer look

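The effects of neighbouring experiments on a gene were compared by a test of the difference itself (edgeR, one fit over 24 libraries with a shared spread), and those with an adjusted p under 0.05 are given. Differences are log2 fold changes of the first experiment minus the second. Between HFD and HA-TRIM15 they were 1.06 for CCN2, 0.76 for AJUBA, 0.68 for AMOTL2, 0.62 for TEAD4, 0.40 for YAP1 and -0.34 for LATS2. Between HA-TRIM15 and shYY2 they were -3.84 for CCN2, -1.76 for CCN1, -1.48 for AJUBA, -0.47 for AMOTL2, -0.42 for LATS2, -0.20 for WWTR1, 0.52 for TEAD1 and 1.59 for ANKRD1. Between shYY2 and shFOXRED1 they were 5.28 for CCN2, 2.39 for CCN1, 1.69 for AJUBA, 0.69 for YAP1, 0.66 for AMOTL2, 0.47 for LATS2 and 0.35 for WWTR1. The value of -1.46 for ANKRD1 in that contrast is no firm difference: the gene did not pass the filter in the FOXRED1 experiment (at most 8 counts a library), and the call was lost with a replicate block, DESeq2 or no filter. The experiments differ in more than the gene targeted (plasmid or shRNA, duration, tumor or culture), and these cannot be told apart from the effects compared.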

How the results depend on the processing

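Of the values of single genes under the alternatives, 1360 kept direction and side of the threshold, 37 lost a call, 20 gained one and 17 changed sign, none of the 17 past the threshold on either side. The cause of these changes was not tested. With HFD, total counts gave -0.041 for WWTR1 (0.060 to 0.081 with libraries left out), 1 of the 10 genes lower, 10 other Hippo genes lower and 4 other targets lower (4 also with upper quartile); leaving out libraries gave 0 to 0, 4 to 6 and 2 to 2 for these counts. With HA-TRIM15, YAP1 was -0.0066 without a filter, -0.024 with total counts, -0.0078 with upper quartile and -0.0051 (without HA-TRIM15 replicate 2) to 0.016 with libraries left out, where AMOTL2 ran from -0.045 to 0.024 (without HA-TRIM15 replicate 2). Other Hippo genes lower numbered 1 with DESeq2 and 5 with no filter, total counts or upper quartile (2 to 5 with libraries left out), other targets lower 2 with total counts or upper quartile (1 to 3), and other targets higher 3 to 7. With shFOXRED1, 5 of the 10 genes were lower with total counts (6 to 8 with libraries left out), and 0 to 1 were higher. Among differences, HFD less HA-TRIM15 for CCN1 was 0.017 with DESeq2, 0.018 with RLE, 0.025 without a filter, and ran from -0.044 to 0.035 with libraries left out (8.2e-04 without EV replicate 3, 0.035 without HA-TRIM15 replicate 1, and 0.0020 and 0.0063 without ND replicates 1 and 2). For ANKRD1 it ran from -0.045 (without ND replicate 2) to 0.38. HA-TRIM15 less shYY2 for TEAD4 ran from -0.12 to 0.028 (without HA-TRIM15 replicate 2). shYY2 less shFOXRED1 for TEAD1 was -0.021 with total counts and ran from -0.0021 (without shControl replicate 3 of the FOXRED1 experiment) to 0.11. With the replicate block, TEAD4 was called with HA-TRIM15 (adjusted p = 0.0363), the WWTR1 difference between HFD and HA-TRIM15 was called (0.0321) and the ANKRD1 difference between shYY2 and shFOXRED1 was lost (0.0749). It changed no other call of the 10 genes. ANKRD1 had no more than 8 counts a library in the FOXRED1 experiment, at a depth near that of the YY2 experiment.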
